A study of Mus musculus with 16 samples.

Results

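The glycolysis and hypoxia response group consisted of 39 mouse gene names chosen by function. No threshold on a measured value enters the list of names, while probes were filtered by detection p-value and the brightest was taken. The rule was written with earlier results of these data known. In the capitals of the deposited table they were the glucose transporters SLC2A1 and SLC2A3, the upper glycolytic enzymes HK1, HK2, GPI1, PFKL, PFKM, PFKP, ALDOA, ALDOC and TPI1, and PFKFB3 and PFKFB4, which set the level of fructose 2,6-bisphosphate. The lower glycolytic enzymes were GAPDH, PGK1, PGAM1, ENO1, ENO2 and PKM2, followed by the lactate dehydrogenases LDHA and LDHB, the pyruvate dehydrogenase kinases PDK1, PDK3 and PDK4, the lactate transporters SLC16A1 and SLC16A3, and the fructose bisphosphatases FBP1 and FBP2. The oxygen sensors and factors were HIF1A, EPAS1, EGLN1 and EGLN3, and the hypoxia targets were VEGFA, BNIP3, DDIT4, ADM, ANKRD37, NDRG1 and NDRL. A row was found for 36 of the 39 names, and Hk2, Gpi1 and Ldhb were not analysed here. The 34 names that passed the filter on dim probes had 44 probes, of 12426 gene symbols and 16848 probes kept in all. Slc16a1 and Bnip3 had a row but did not pass. Where a gene had several kept probes, as 7 members did, the brightest stood for it.

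Fallopian tubes of immature, hormone-untreated female C57BL/6N mice aged 3.5 to 5 weeks were measured on 16 Illumina bead arrays, 4 in each of 4 groups. The tubes were opened lengthwise, cut and kept in a handling medium that had been warmed to 37 °C, and progesterone at 100 nmol/L, or the vehicle, was then added for 20 min or 2 h. Control and progesterone media both held 0.01% ethanol, and every sample pooled 6 tubes in a dish. The time points had different sample pairs, 27n, 26n, 12n and 22ob at 20 min and 6d, 19n, 30o and 15o at 2 h, and the values below follow that order. No sample was taken before the incubation, and no pair was measured at both times. Time in the dish therefore cannot be told apart from anything else that differed between these sets of pools. Separate pools are described for the samples of a group, but the tubes of a pair were said to come from the same mice, so the control and progesterone arms are not independent sets of animals.

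Oxygen is sensed in mammalian cells by prolyl hydroxylases of the EGLN family, which mark the alpha subunits of the hypoxia-inducible factors (HIF) for degradation while oxygen is at hand. When the hydroxylases slow down, the factors accumulate and bind DNA at a short core written as ACGTG or GCGTG, and genes for glucose uptake, glycolysis, lactate formation and blood vessel growth are transcribed. HIF is controlled mainly at the level of the protein, which arrays do not measure. Below, some genes are named as HIF targets, and the lack of that name does not mean that a gene is not one.

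In the arrays as a whole, the median signal intensity was between 116 and 161, and 13222 to 14267 probes per array were detected at a p-value under 0.05. The correlation of log2 signals between arrays was between 0.968 and 0.996. The oviduct secretory markers Ovgp1 and Pax8 and all 6 markers of ciliated cells were detected on all 16 arrays. None of the 3 kept fat markers and none of the 3 kept ovary markers was detected on all arrays, although Cfd (fat) was detected on 12 and Zp3 (oocyte) on 15 of the 16. The tubes are bulk tissue, in which fewer cells of a type and less RNA per cell cannot be told apart.

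After 2 h in the dish, some of the members stood above their level at 20 min in both arms. Ndrg1, Egln3, Vegfa, Slc2a1, Ldha and Adm rose, together with the row named Ndrl, whereas the glucose transporter Slc2a3 fell. In the control samples 8 of the 34 members (23.5%) were higher after 2 h at an adjusted p of at most 0.05 in limma, beside 6.51% of all genes tested, and 2 (5.88%) were lower, beside 5.92%. In the progesterone samples 10 members (29.4%) were higher, beside 7.59%, and 2 (5.88%) were lower, beside 8.76%. The median change of the members was 0.19 on the log2 scale in the controls and 0.15 with progesterone, against -0.02 for all genes in each arm. Without any overlap, all 8 arrays of 2 h lay above all 8 arrays of 20 min for 8 members (23.5%), beside 5.21% of all genes, and below them for 1 member (2.94%), Slc2a3, beside 3.86%. The 8 were Slc2a1, Ldha, Vegfa, Egln3, Ddit4, Adm, Ndrg1 and Ndrl. These counts depended on the scaling. With median centring in place of quantile normalization, 5 members were higher and 3 lower in the controls, and 7 and 4 with progesterone. Without scaling, 4 were higher in each arm, 3 were lower in the controls and 6 with progesterone, and the median of all kept probes moved by -0.17 and -0.23. The share of all genes under these alternatives is not given here. Whether the members still exceeded it cannot be judged from these counts.

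**Figure D1:**
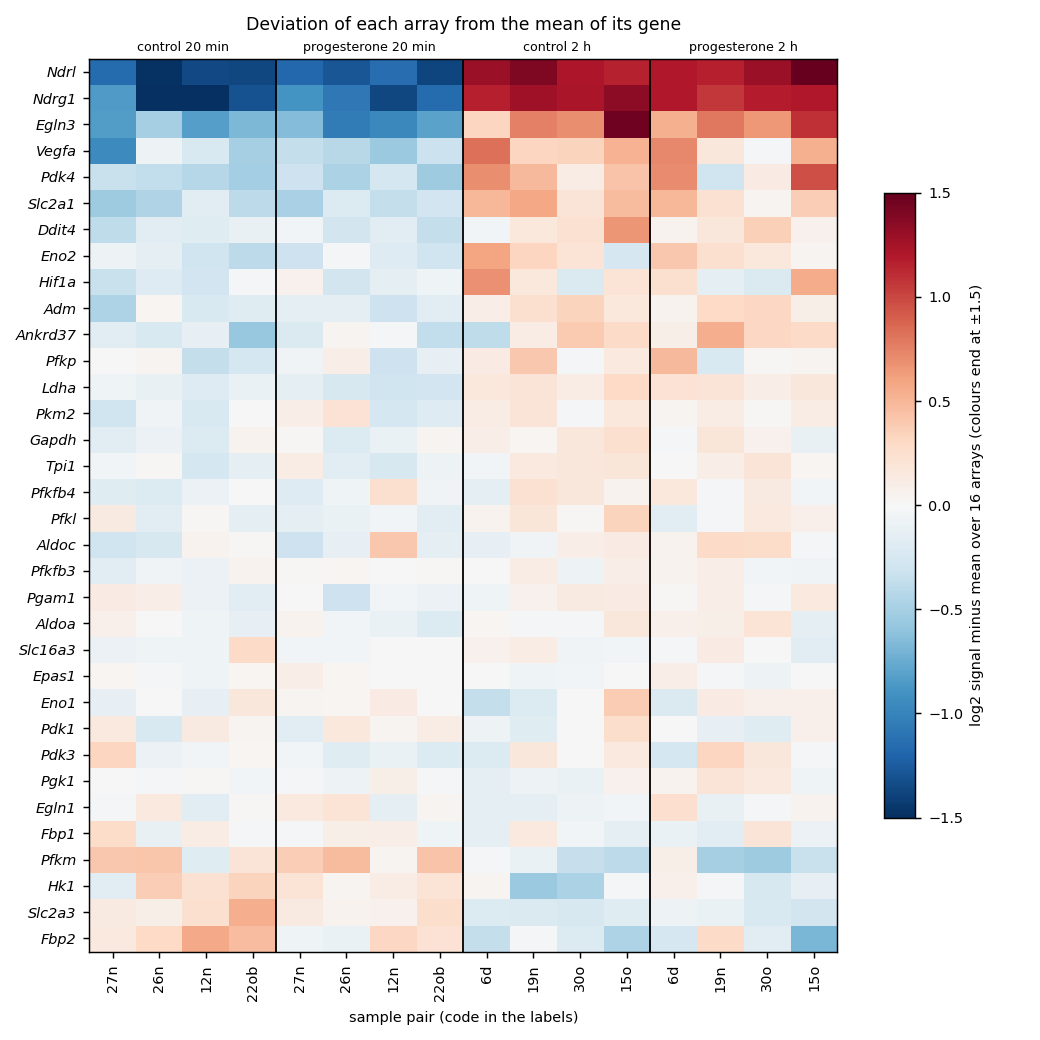
Log2 signal of the 34 members on each of the 16 arrays, as the difference from the mean of that gene over all arrays. Rows are ordered by the change over time in the controls, columns are grouped by treatment and time, and red is above the mean and blue below. Ndrl, Ndrg1 and Egln3 at the top changed from blue to red between 20 min and 2 h in all arrays of both arms, while most rows in the middle stayed near their mean.

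The promoter sequences of the members that rose in both arms show where the HIF core occurs. The RefSeq table used here (GRCm38.p6) held a start for Slc2a1, Ldha, Vegfa, Egln3 and Adm, and did not hold Ndrg1. Each line gives the 250 bases before the most upstream start listed, 5′ to 3′ on the gene's strand, with the cores ACGTG and GCGTG in capitals on either strand, so that a core on the opposite strand reads CACGT or CACGC. The palindrome CACGTG holds ACGTG on both strands and counts as 2 matches. The windows are chr4:119108495-119108744 (+) for Slc2a1, chr7:46845554-46845803 (+) for Ldha, chr17:46032378-46032627 (-) for Vegfa, chr12:54203875-54204124 (-) for Egln3 and chr7:110627407-110627656 (+) for Adm.
Slc2a1: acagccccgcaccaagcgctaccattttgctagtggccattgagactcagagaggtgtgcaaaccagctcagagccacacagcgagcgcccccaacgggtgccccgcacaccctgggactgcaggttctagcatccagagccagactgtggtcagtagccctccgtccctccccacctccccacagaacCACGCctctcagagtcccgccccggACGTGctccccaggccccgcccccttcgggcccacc
Ldha: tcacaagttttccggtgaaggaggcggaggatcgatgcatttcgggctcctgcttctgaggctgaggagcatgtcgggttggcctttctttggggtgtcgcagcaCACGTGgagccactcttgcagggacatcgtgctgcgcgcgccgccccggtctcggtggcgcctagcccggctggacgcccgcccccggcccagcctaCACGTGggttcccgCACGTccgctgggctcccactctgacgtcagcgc
Vegfa: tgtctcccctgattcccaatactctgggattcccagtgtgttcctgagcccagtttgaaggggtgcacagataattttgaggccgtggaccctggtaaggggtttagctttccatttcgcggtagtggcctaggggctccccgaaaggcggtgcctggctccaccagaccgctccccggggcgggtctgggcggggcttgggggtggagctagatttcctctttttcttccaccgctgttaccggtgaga
Egln3: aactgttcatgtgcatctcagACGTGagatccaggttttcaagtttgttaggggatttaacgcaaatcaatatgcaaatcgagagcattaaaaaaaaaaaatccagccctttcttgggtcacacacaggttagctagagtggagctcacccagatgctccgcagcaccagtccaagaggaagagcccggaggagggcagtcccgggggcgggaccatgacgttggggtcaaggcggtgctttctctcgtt
Adm: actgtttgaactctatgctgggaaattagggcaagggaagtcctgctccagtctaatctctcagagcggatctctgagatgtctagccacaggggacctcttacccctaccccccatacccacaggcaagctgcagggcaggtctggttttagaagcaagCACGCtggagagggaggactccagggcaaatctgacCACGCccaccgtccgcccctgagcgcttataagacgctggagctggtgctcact
Slc2a1 had an ACGTG 36 to 32 bases before its start and a GCGTG on the opposite strand 61 to 57 bases before it. Ldha had 5 matches of ACGTG, of which 4 came from 2 palindromes. Egln3 had a single ACGTG, 229 to 225 bases before its start, and Adm had 2 matches of GCGTG on the opposite strand. The Vegfa window printed had no match, and its other listed start had 2. Among all 32851 windows of this length, 16.6% held ACGTG, 28.2% held GCGTG and 38.6% held either. A core stood before the most upstream listed start of 23 of the 30 kept members in the table (76.7%), beside 53.2% of the 7696 kept genes matched, and the median GC content of these windows was 59.2% in each set. By the same start, 14 of the 19 members that were called in neither arm (73.7%) had a core, as did 4 of the 5 (80%) that rose in both. Over all listed starts, of which some genes have several, at least 1 window held a core in 27 of the 30 members (90%) and 57.8% of the kept genes, in 17 of the 19 (89.5%) called in neither arm and in 5 of the 5 that rose in both. These matches describe letters and not sites bound by HIF.

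Ndrg1 encodes a cytoplasmic protein that is induced by HIF in many cell types. The log2 signal of Ndrg1 was 8.81, 8.15, 8.15 and 8.35 in the control samples of 20 min and 8.76, 8.58, 8.29 and 8.51 in the progesterone samples of 20 min. After 2 h it was 10.83, 10.93, 10.88 and 11.003 in the controls and 10.86, 10.71, 10.83 and 10.85 with progesterone. The times did not overlap, and the 8 arrays of 2 h lay close together, between 10.71 and 11.003. In the controls the mean went from 8.36 ± 0.31 to 10.91 ± 0.07 (SD, 4 arrays per group), a rise of 2.55 on the log2 scale (5.84-fold, 95% interval of the log2 value 2.24 to 2.85, limma adjusted p = 4.75e-06). With progesterone the rise was 2.28 (4.85-fold, 2.06 to 2.49, limma adjusted p = 7.91e-07). Among 12426 genes ordered by this change, Ndrg1 stood at place 12 from the top in the controls and 20 with progesterone.

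The row named Ndrl carries no definition in the table, and RefSeq lists Ndrl as a synonym of Ndrg1, so that the pair is probably 1 gene measured by 2 probes. Its values were 8.47, 8.14, 8.27 and 8.26 in the 20 min controls and 8.46, 8.35, 8.48 and 8.25 in the 20 min progesterone samples. They were 10.92, 11.03, 10.84 and 10.78 in the 2 h controls and 10.83, 10.79, 10.92 and 11.25 in the 2 h progesterone samples. All arrays of 2 h again exceeded all arrays of 20 min. The rise was 2.61 in the controls (6.09-fold, 2.41 to 2.80, limma adjusted p = 4.36e-07) and 2.56 with progesterone (5.92-fold, 2.33 to 2.80, limma adjusted p = 7.81e-07). Counted as 1 gene, the members higher after 2 h were 7 of 33 in the controls and 9 of 33 with progesterone.

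Vegfa encodes vascular endothelial growth factor A, the main growth signal for blood vessels. In the 20 min samples its log2 signal was 8.70, 9.59, 9.43 and 9.16 in the controls and 9.30, 9.24, 9.10 and 9.33 with progesterone. In the 2 h samples it was 10.48, 9.98, 9.998 and 10.18 in the controls and 10.38, 9.83, 9.64 and 10.19 with progesterone. The ranges nearly met, since the highest array of 20 min was at 9.59 and the lowest of 2 h at 9.64. Vegfa rose by 0.94 in the controls (1.92-fold, 0.52 to 1.36, limma adjusted p = 0.0116) and by 0.76 with progesterone (1.70-fold, 0.44 to 1.09, limma adjusted p = 0.00724). A second kept probe rose by 0.91 and 0.83, and both rises passed the test. With median centring the adjusted p in the controls was 0.0536, and without scaling it was 0.115 in the controls and 0.104 with progesterone.

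Adm encodes adrenomedullin, a peptide that relaxes vascular smooth muscle. Its signal was 7.22, 7.72, 7.45 and 7.51 in the 20 min controls and 7.55, 7.54, 7.37 and 7.53 in the 20 min progesterone samples. The 2 h values were 7.79, 7.92, 8.02 and 7.84 in the controls and 7.74, 7.98, 7.99 and 7.78 with progesterone. The gap between the times was small, from 7.72 to 7.74. Adm rose by 0.42 in the controls (1.34-fold, 0.19 to 0.65, limma adjusted p = 0.031) and by 0.37 with progesterone (1.29-fold, 0.19 to 0.55, limma adjusted p = 0.0126). The call in the controls was lost when 27n (adjusted p = 0.0619), 12n (0.0672) or 22ob (0.0646) of 20 min, or 19n (0.0852) or 30o (0.0856) of 2 h, was left out. It was also lost with median centring (0.169) and without scaling (0.542), as was that with progesterone (0.0811 and 0.676).

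Ddit4 encodes an inhibitor of mTORC1 that responds to hypoxia and to other stresses. At 20 min its signal was 9.30, 9.52, 9.49 and 9.56 in the controls and 9.63, 9.40, 9.52 and 9.31 with progesterone. At 2 h it was 9.64, 9.84, 9.91 and 10.34 in the controls and 9.73, 9.84, 10.03 and 9.74 with progesterone. No array of 2 h was below an array of 20 min, although the nearest values, 9.63 and 9.64, were almost equal. The change was 0.37 with progesterone, which passed the test (0.16 to 0.57, limma adjusted p = 0.0248), and 0.46 in the controls, which did not (0.16 to 0.76, limma adjusted p = 0.0589). The call with progesterone was lost without 26n (adjusted p = 0.0679) or 22ob (0.0705) of 20 min and without 19n (0.0521) or 30o (0.0665) of 2 h. It was lost with median centring (0.49) and with background correction (0.0651), and without scaling the value was -0.04.

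Ankrd37, an ankyrin repeat gene induced by HIF, had signals of 8.32, 8.25, 8.35 and 7.91 in the 20 min controls and 8.26, 8.51, 8.46 and 8.11 in the 20 min progesterone samples. After 2 h they were 8.10, 8.59, 8.87 and 8.77 in the controls and 8.56, 9.02, 8.79 and 8.77 with progesterone. The 2 h control of pair 6d lay among the 20 min arrays. Ankrd37 rose with progesterone by 0.45 (0.19 to 0.71, limma adjusted p = 0.0266), and the value in the controls was 0.38 (limma adjusted p = 0.188). Leaving out 27n (adjusted p = 0.07) or 22ob (0.0705) of 20 min, or 19n (0.0587), 30o (0.07) or 15o (0.055) of 2 h, ended the call, as did median centring (0.283) and no scaling (0.787). The test of the difference between the arms is given with the progesterone results. With progesterone, all 6 kept members listed under hypoxia targets were thus higher after 2 h, beside 7.59% of all genes. In the controls 4 of 6 were, beside 6.51%. With Ndrg1 and Ndrl counted as 1 gene, these were 5 of 5 and 3 of 5. Members under other roles are also named as HIF targets below. Of those, Egln3, Slc2a1 and Ldha passed in both arms, and Pfkfb3 and Pdk1 passed in neither.

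**Figure D2:**
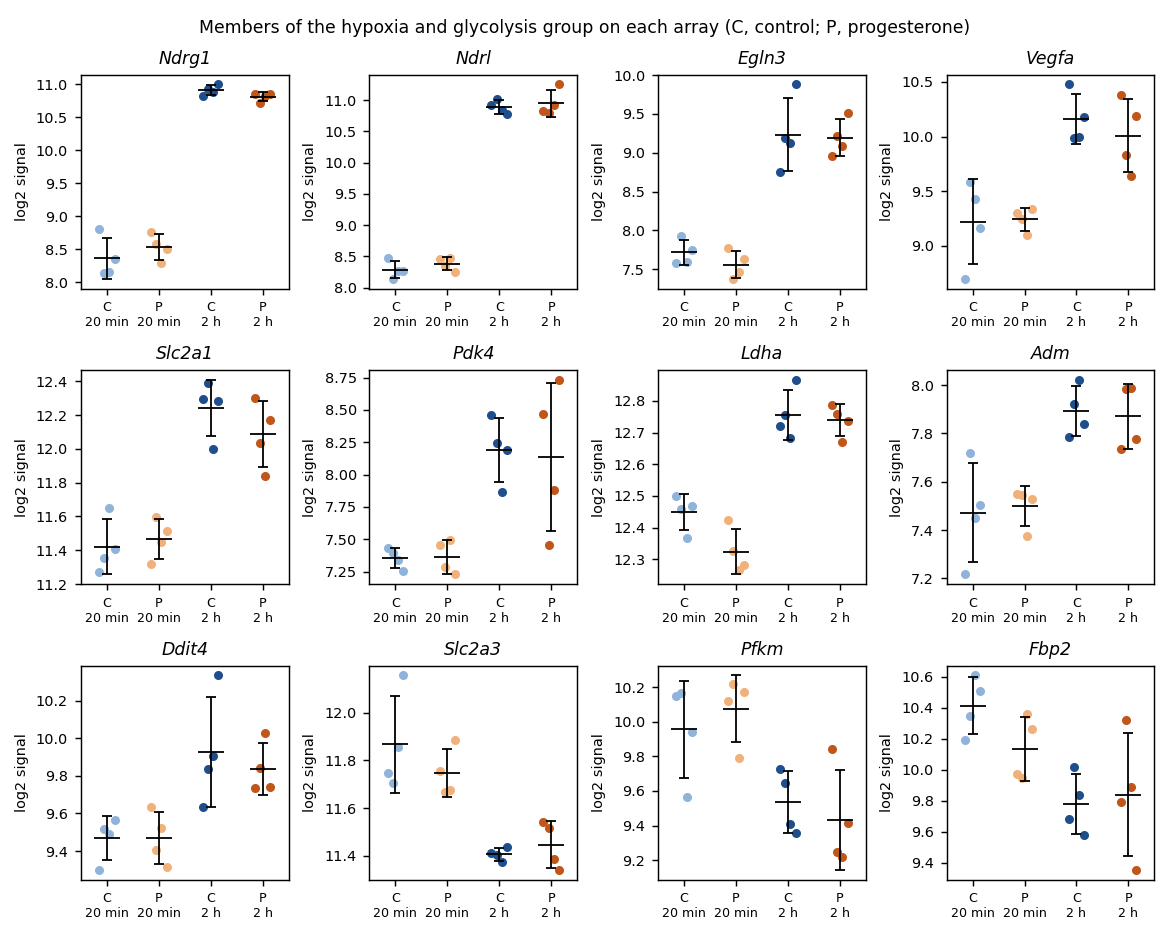
Log2 signal (vertical axis) of 12 members on each array, for the control (C) and progesterone (P) samples of 20 min and 2 h. Points are arrays, and the horizontal bar and whiskers are the mean and SD of 4 arrays. The vertical axes do not start at 0 and differ between panels. For Ndrg1 the arrays of 20 min end at 8.81 and those of 2 h begin at 10.71, for Pdk4 and Fbp2 1 of the 4 progesterone arrays of 2 h lies within the range of 20 min, and Slc2a3 is lower at 2 h on every array.

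Among the oxygen sensors and factors, Egln3 rose and the others did not pass the test. EGLN3 is a HIF prolyl hydroxylase whose own gene is a HIF target. The log2 signal of Egln3 was 7.58, 7.93, 7.60 and 7.75 in the 20 min controls and 7.77, 7.37, 7.46 and 7.63 in the 20 min progesterone samples. It was 8.75, 9.18, 9.12 and 9.88 in the 2 h controls and 8.96, 9.22, 9.08 and 9.52 in the 2 h progesterone samples. The highest value of 20 min was 7.93 and the lowest of 2 h was 8.75. Egln3 rose by 1.52 in the controls (2.87-fold, 1.06 to 1.98, limma adjusted p = 0.00156) and by 1.64 with progesterone (3.11-fold, 1.35 to 1.92, limma adjusted p = 3.23e-05). With background correction these folds were 4.47 and 5.41.

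Hif1a encodes the alpha subunit of HIF-1. The Hif1a signal was 8.07, 8.21, 8.11 and 8.36 in the 20 min controls and 8.46, 8.12, 8.25 and 8.34 with progesterone for 20 min. At 2 h it was 9.09, 8.56, 8.18 and 8.61 in the controls and 8.64, 8.25, 8.18 and 8.95 with progesterone. Pairs 6d and 15o were higher than 19n and 30o in both arms, and 3 of the 4 arrays of 19n and 30o lay within the range of the 20 min arrays. The change was 0.42 in the controls (0.06 to 0.79, limma adjusted p = 0.139) and 0.21 with progesterone (-0.14 to 0.57, limma adjusted p = 0.439). With median centring the latter was -0.05.

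Epas1 encodes the alpha subunit of HIF-2 and was detected on 15 of the 16 arrays, near background. Its signal was 7.10, 7.05, 7.01 and 7.10 in the 20 min controls, 7.17, 7.10, 7.06 and 7.08 in the 20 min progesterone samples, 7.08, 7.01, 7.03 and 7.06 in the 2 h controls and 7.17, 7.05, 6.99 and 7.07 in the 2 h progesterone samples. All 16 values lay between 6.99 and 7.17. The change was -0.02 in the controls (-0.14 to 0.10) and -0.04 with progesterone (-0.17 to 0.10). Egln1, the main HIF prolyl hydroxylase in most tissues, changed by -0.10 in the controls (-0.26 to 0.06) and -0.02 with progesterone (-0.24 to 0.20), and none of its 3 probes passed the test.

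The glucose transporters went in opposite directions. Slc2a1 encodes GLUT1, which takes up glucose in most cells and is a HIF target. The log2 signal of Slc2a1 was 11.27, 11.35, 11.65 and 11.41 in the 20 min controls and 11.32, 11.60, 11.45 and 11.51 in the 20 min progesterone samples. It was 12.30, 12.39, 11.9997 and 12.28 in the 2 h controls and 12.30, 12.03, 11.84 and 12.17 in the 2 h progesterone samples. All 2 h arrays were above 11.84, the lowest of them, and all 20 min arrays at or under 11.65. Slc2a1 rose by 0.82 in the controls (1.77-fold, 0.58 to 1.06, limma adjusted p = 0.00121) and by 0.62 with progesterone (1.53-fold, 0.39 to 0.85, limma adjusted p = 0.00349). Without scaling the adjusted p in the controls was 0.0526.

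Slc2a3 encodes GLUT3, a high-affinity glucose transporter best known from neurons and embryos. Its signal ranged from 11.67 to 12.16 over the 20 min arrays and from 11.34 to 11.54 over the 2 h arrays, without overlap. Slc2a3 fell by 0.46 on the log2 scale in the controls (1.38-fold lower, limma adjusted p = 0.0148) and fell by 0.30 with progesterone (1.23-fold lower, limma adjusted p = 0.0243). The call with progesterone was lost without 27n (adjusted p = 0.0577) or 22ob (0.0685) of 20 min, without 30o (0.0717) or 15o (0.0623) of 2 h, and with background correction (0.122).

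Most enzymes of glycolysis itself did not pass the test. None of the 7 kept members of the upper part passed in the controls, and 1 of 7 was lower with progesterone. That gene was Pfkm, the muscle-type subunit of phosphofructokinase. Its brightest probe was at 10.15, 10.17, 9.56 and 9.94 in the 20 min controls and 10.12, 10.22, 9.79 and 10.17 in the 20 min progesterone samples. After 2 h it was at 9.73, 9.65, 9.41 and 9.36 in the controls and 9.84, 9.25, 9.22 and 9.42 with progesterone. The times overlapped, with the lowest 20 min values in pair 12n and the highest 2 h values in pair 6d. Pfkm fell by 0.64 on the log2 scale with progesterone (-0.97 to -0.32, limma adjusted p = 0.0155), and the value in the controls was -0.42 (-0.74 to -0.10, limma adjusted p = 0.0925). Without 30o of 2 h the adjusted p with progesterone was 0.051, and with median centring the control value of -0.59 passed (adjusted p = 0.0182). The other 2 Pfkm probes gave -0.42 and -0.03 with progesterone and did not pass.

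The other upper enzymes did not pass the test in either arm. Hk1, a hexokinase, which phosphorylates glucose on entry, changed by -0.44 in the controls (-0.81 to -0.07, limma adjusted p = 0.124) and -0.22 with progesterone (-0.40 to -0.04, limma adjusted p = 0.103), and with median centring the latter was -0.40 (adjusted p = 0.00481). The phosphofructokinase subunit Pfkp changed by 0.31 and 0.18, and triose phosphate isomerase, Tpi1, by 0.22 and 0.17. The liver-type subunit Pfkl and the aldolases Aldoa and Aldoc had values between 0.06 and 0.19 in both arms. Other probes of Pfkl (-0.12 and -0.01) and Tpi1 (0.08 and 0.11, and -0.04 and -0.03) also did not pass.

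Pfkfb3 makes fructose 2,6-bisphosphate, the strongest activator of phosphofructokinase, and is a HIF target in many cells. It was detected on 9 of 16 arrays. Its signal was 6.81, 6.93, 6.89 and 7.03 in the 20 min controls and 6.995, 7.01, 6.98 and 7.002 in the 20 min progesterone samples. It was 6.98, 7.09, 6.90 and 7.08 in the 2 h controls and 7.04, 7.08, 6.94 and 6.93 in the 2 h progesterone samples. All groups overlapped, and the change was 0.10 in the controls (-0.06 to 0.26) and between -0.13 and 0.13 by its 95% interval with progesterone. Changes of the signal within these limits could not be told from 0 at this dim probe. For Pfkfb4 the change was 0.20 (0.00 to 0.40) and 0.08 (-0.14 to 0.29), neither past the test.

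In the lower part of glycolysis, Eno2 was the single member of 6 to pass, and it did so with progesterone. Eno2, the neuronal-type enolase, ranged from 7.14 to 7.50 over the 20 min arrays and from 7.28 to 8.12 over the 2 h arrays. It rose by 0.42 with progesterone (0.21 to 0.63, limma adjusted p = 0.0143), and the value in the controls was 0.44 with wider spread (0.08 to 0.80, limma adjusted p = 0.115). Without scaling the former was 0.14 (adjusted p = 0.32). Gapdh, which oxidizes glyceraldehyde 3-phosphate, changed by 0.23 (limma adjusted p = 0.0852) and 0.09, and pyruvate kinase, Pkm2, by 0.26 (limma adjusted p = 0.0835) and 0.11. Phosphoglycerate mutase, Pgam1, changed by 0.07 and 0.16, and the enolase Eno1 by -0.02 and -0.03. Phosphoglycerate kinase, Pgk1, was detected on 8 of 16 arrays and had values of -0.05 and 0.08.

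Ldha encodes the subunit of lactate dehydrogenase that favours the formation of lactate, and it is a HIF target. Its signal was 12.50, 12.46, 12.37 and 12.47 in the 20 min controls and 12.42, 12.32, 12.27 and 12.28 in the 20 min progesterone samples. It was 12.72, 12.75, 12.68 and 12.87 in the 2 h controls and 12.79, 12.76, 12.67 and 12.74 in the 2 h progesterone samples. The 20 min values ended at 12.50 and the 2 h values began at 12.67. The rise was 0.31 in the controls (1.24-fold, 0.16 to 0.45, limma adjusted p = 0.0146) and 0.41 with progesterone (1.33-fold, 0.28 to 0.55, limma adjusted p = 0.00182). In the controls the call was lost with median centring (adjusted p = 0.054), background correction (0.123) and no scaling (0.378), and with progesterone it was lost without scaling (0.0754). The lactate exporter Slc16a3 was detected on 4 of 16 arrays and its value was 0.00 in each arm, with 95% intervals of -0.20 to 0.21 in the controls and -0.16 to 0.16 with progesterone.

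Pyruvate dehydrogenase kinases hold pyruvate back from mitochondrial oxidation, and Pdk4 is the form that rises on fasting. The Pdk4 signal was 7.43, 7.40, 7.34 and 7.26 in the 20 min controls and 7.46, 7.28, 7.497 and 7.23 in the 20 min progesterone samples. It was 8.46, 8.25, 7.87 and 8.19 in the 2 h controls and 8.47, 7.46, 7.88 and 8.73 in the 2 h progesterone samples. The 2 h progesterone sample of 19n lay within the range of 20 min, and those of 6d and 15o were the highest of all. Pdk4 rose by 0.84 in the controls (1.78-fold, 0.58 to 1.09, limma adjusted p = 0.0016). With progesterone the value of 0.77 missed the threshold (0.24 to 1.30, limma adjusted p = 0.0555). After background correction the folds were 2.92 and 2.60, and the latter passed (adjusted p = 0.027). Pdk1, a HIF target, had values of -0.02 (-0.28 to 0.23) and -0.10 (-0.29 to 0.10), and with median centring the latter was -0.36 and passed (adjusted p = 0.0217).

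Fbp2, the muscle-type fructose bisphosphatase, works against phosphofructokinase. Its signal was 10.19, 10.35, 10.61 and 10.51 in the 20 min controls and 9.97, 9.95, 10.36 and 10.26 in the 20 min progesterone samples. It was 9.68, 10.02, 9.84 and 9.58 in the 2 h controls and 9.79, 10.32, 9.89 and 9.36 in the 2 h progesterone samples. The control arrays of the 2 times did not overlap, while the progesterone arrays did, with 19n at 10.32. Fbp2 fell by 0.63 on the log2 scale in the controls (1.55-fold lower, -0.89 to -0.37, limma adjusted p = 0.00803), and the value with progesterone was -0.29 (-0.70 to 0.11, limma adjusted p = 0.335). Fbp1, the liver-type enzyme, was detected on 9 of 16 arrays and had values of -0.11 and -0.06.

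**Figure D3:**
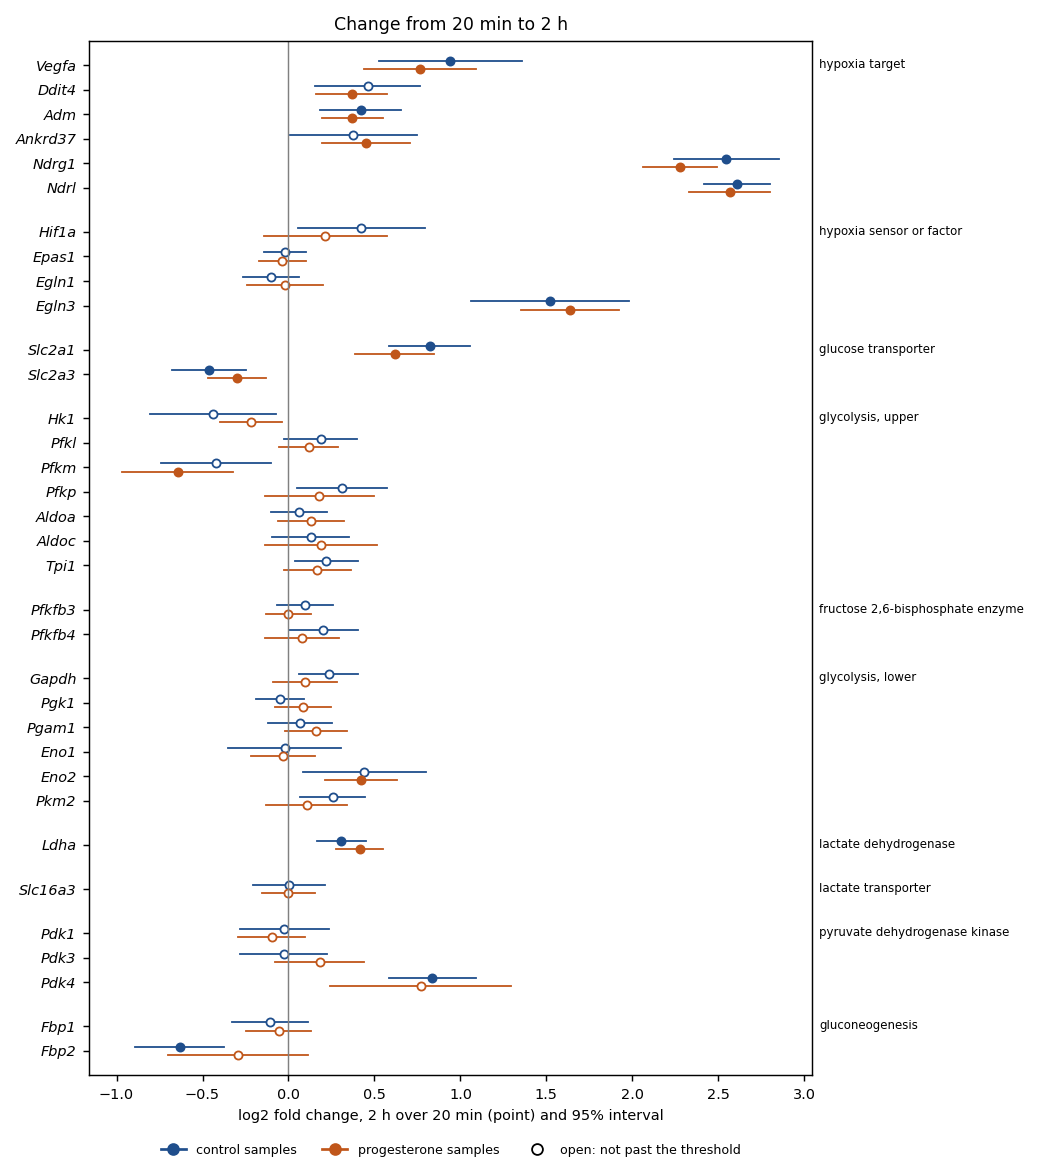
Change of the 34 members from 20 min to 2 h on the log2 scale (horizontal axis), with 95% intervals from limma, in the control samples (blue) and the progesterone samples (orange), grouped by role. Filled points passed an adjusted p of 0.05 and open points did not. The hypoxia targets, Egln3, Slc2a1, Ldha and Pdk4 lie to the right of 0, Slc2a3, Pfkm and Fbp2 to the left, and most enzymes of glycolysis have open points near 0. Without scaling between arrays, the progesterone value of Ddit4 was -0.04.

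Markers of handling and of other cell types were read beside the members. Of the 9 kept immediate early genes, which respond within minutes to handling and to growth signals, 5 were lower and 1, Ier3, was higher after 2 h in the controls, and 6 were lower and 0 higher with progesterone. Jun fell by 1.11 and fell by 1.18 on the log2 scale, and Ier3 had values of 0.48 and 0.22, the latter not past the test (limma adjusted p = 0.0852). Their mean log2 level per array was 11.75 to 11.96 in the 20 min controls and 11.80 to 12.16 in the 20 min progesterone samples, and 11.28 to 11.51 and 11.13 to 11.54 after 2 h. The 3 kept secretory epithelium markers, all detected on every array, averaged 11.73 to 12.07 and 11.88 to 12.02 at 20 min and 12.12 to 12.35 and 12.14 to 12.27 at 2 h. Krt8 was the marker among them that rose, by 0.58 and 0.67, and Ovgp1 and Pax8 did not pass the test. None of the 7 smooth muscle markers passed it, but their median change was -0.46 in the controls and -0.58 with progesterone. The values of Myh11 were -1.39 (-2.93 to 0.15) and -1.58 (-2.73 to -0.43), and Des went the other way, at 0.25 and 0.05. The mean level of these markers overlapped between the times, with 10.54 to 11.33 and 10.71 to 11.36 at 20 min and 9.31 to 11.47 and 9.83 to 11.38 at 2 h. The 4 kept skeletal muscle markers, of which 1 was detected on all arrays, averaged 7.24 to 7.47, 7.19 to 7.44, 6.97 to 7.37 and 7.24 to 7.33 in the same order, and none passed. The 3 kept fat markers averaged 6.98 to 7.21, 6.85 to 7.80, 6.93 to 7.66 and 6.92 to 8.23, and none passed. Among them Cfd, the fat cell product adipsin, was uneven, at 9.88 in the 2 h progesterone sample of 15o, 9.11 in the 20 min progesterone sample of 27n and 8.84 in the 2 h control of 30o, and at or under 7.78 on the other arrays. The 2 h progesterone sample of 15o was also the highest array for Pdk4. For the other arrays with high Cfd this did not hold. The 2 h control of 30o was the lowest 2 h control for Pdk4. The 20 min progesterone sample of 27n was not the highest of its group. None of the 6 ciliated, 3 blood and 4 endothelium markers passed over time in either arm. Their median changes were 0.18, 0.17 and 0.14 in the controls and 0.05, 0.04 and 0.02 with progesterone. The blood marker Hba-a1 was uneven, from 10.73 in 15o to 13.50 in 6d among the 2 h controls. The part of these markers in the members' values was not tested.

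A further 75 genes of the same pathways were examined, of which 52 were kept. In the controls 3 of the 52 were higher after 2 h, beside 6.51% of all genes, and 5 were lower, beside 5.92%. With progesterone 3 were higher, beside 7.59%, and 4 were lower, beside 8.76%. The median changes over time were -0.0039 and 0.0136. The largest rise was that of Hmox1, which encodes heme oxygenase 1 and responds to oxidative stress as well as to HIF. The Hmox1 signal was between 7.06 and 7.41 on the 20 min arrays and between 8.82 and 10.52 on the 2 h arrays, with pair 6d highest in both arms. It rose by 2.08 in the controls (4.22-fold, limma adjusted p = 0.000894) and by 2.52 with progesterone (5.73-fold, limma adjusted p = 0.000257). Bhlhb2, a HIF-induced repressor of transcription, rose by 0.55 and 0.51, and Pfkfb2, another fructose 2,6-bisphosphate enzyme, by 0.25 and 0.40. Between progesterone and control at 2 h, 8 of the 52 had an unadjusted p under 0.05 in limma, beside 332 of 12426 genes. None was called. Among the 8, P4ha2 was higher with progesterone by 0.43 (unadjusted p = 0.000836 in limma) and Hmox1 by 0.46 (unadjusted p = 0.0045 in limma). Txnip (0.36, unadjusted p = 0.006 in limma), Cited2 (0.36) and Pfkfb2 (0.20) were also higher. Pgm2, P4ha1 and Ppp1r3c were lower. The interaction for Hmox1 was 0.44 (unadjusted p = 0.00852 and adjusted p = 0.999 in limma).

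Among the further genes that fell over time was Txnip, which restrains glucose uptake and is induced by glucose. Its signal was 11.58 to 12.03 on the 20 min arrays and 10.54 to 11.19 on the 2 h arrays, and it fell by 1.04 on the log2 scale in the controls (limma adjusted p = 0.000165) and by 0.82 with progesterone (limma adjusted p = 0.000302). Ppp1r3c, a subunit that directs a phosphatase to glycogen, fell by 0.55 and fell by 0.75, and Slc2a4, the insulin-dependent glucose transporter GLUT4, fell by 0.45 and fell by 0.53. P4ha2, a collagen prolyl hydroxylase, fell by 0.34 in the controls (limma adjusted p = 0.00588), while its value with progesterone was 0.17 (limma adjusted p = 0.275). Progesterone minus control for P4ha2 at 2 h was 0.43 (0.23 to 0.62), higher in 4 of 4 pairs. Its unadjusted p was 0.000836 and its adjusted p was 1 in limma. The interaction was 0.51 (unadjusted p = 0.000529 and adjusted p = 0.99 in limma). The study's paired SAM of these arrays listed P4ha2 as higher with progesterone at 2 h, at a q-value of at most 20%. Pdk2 fell by 0.22 in the controls, with -0.23 and no call with progesterone, and the histone demethylase gene Jmjd2b fell by 0.31 with progesterone, with -0.26 and no call in the controls. Apart from Hmox1, Bhlhb2 and Pfkfb2, no gene of this list passed as higher in either arm, and that includes classical HIF targets. The carbonic anhydrase gene Car9 had values of 0.21 and 0.27 (limma adjusted p = 0.453 and 0.063) and the demethylase gene Jmjd1a 0.17 and -0.02. Car9 and Jmjd1a were picked for naming after their values were seen.

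Progesterone was compared with the vehicle within each time point, to ask whether the hormone changed these genes. No member passed an adjusted p of at most 0.20 in limma at either time. After 20 min 0 of 34 members were called, beside 0% of all genes, with 2 members at an unadjusted p under 0.05. After 2 h 0 of 34 were called, beside 0.00805% of all genes, which is 1 gene of 12426, and no member had an unadjusted p under 0.05. The median difference of the members was 0.02 at 20 min and -0.02 at 2 h, against 0.00 for all genes at each time. The 95% intervals of all 34 members lay between -0.41 and 0.35 at 20 min and between -0.46 and 0.45 at 2 h. Their median half-width with 4 pairs was 0.16 and 0.20, before any correction for the number of probes tested. With that correction larger differences were not called either, such as that of Fbp2 at 20 min (-0.28, adjusted p = 0.948 in limma).

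**Figure D4:**
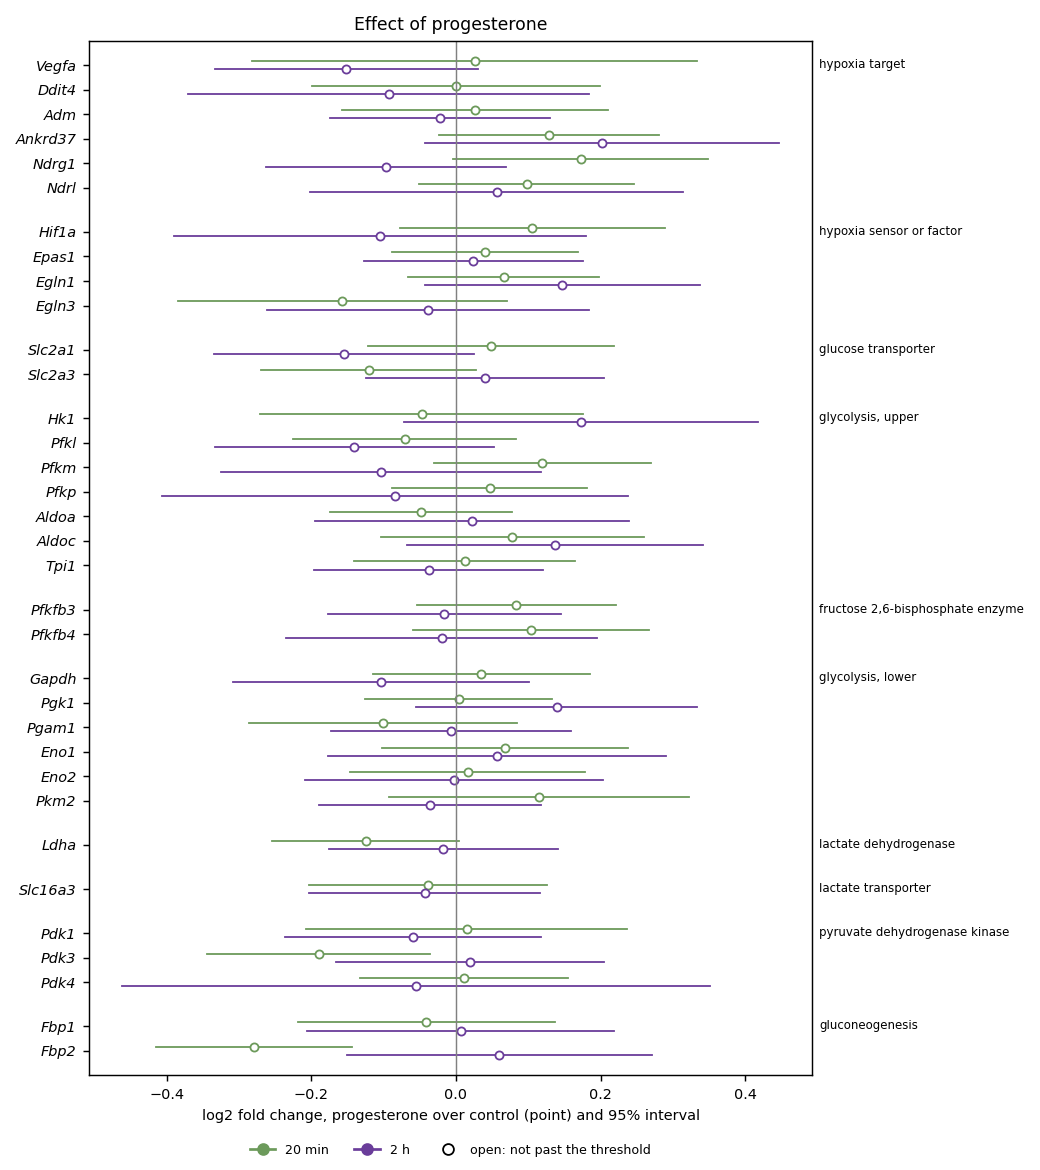
Difference between progesterone and control samples on the log2 scale (horizontal axis) for the 34 members, with 95% intervals from limma on 4 sample pairs, after 20 min (green) and 2 h (purple). All points are open, since no member passed an adjusted p of 0.20. The intervals of Fbp2 and Pdk3 at 20 min lie below 0, and all the others include it.

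Fbp2 had the smallest p at 20 min. Progesterone minus control was -0.22 in pair 27n, -0.40 in 26n, -0.25 in 12n and -0.24 in 22ob, lower in 4 of 4 pairs. The mean difference was -0.28 (-0.41 to -0.14, unadjusted p = 0.00103 and adjusted p = 0.948 in limma). The second was Pdk3, a further pyruvate dehydrogenase kinase. Its signal was 8.75, 8.33, 8.38 and 8.46 in the 20 min controls and 8.38, 8.24, 8.33 and 8.21 in the 20 min progesterone samples, and 8.21, 8.59, 8.43 and 8.57 and 8.15, 8.75, 8.59 and 8.39 in those of 2 h. At 20 min it was lower with progesterone in 4 of 4 pairs, by -0.19 on average (-0.34 to -0.04, adjusted p = 0.948 in limma). For Ndrg1 the difference at 20 min was 0.17, higher in 3 of 4 pairs (-0.00 to 0.35, adjusted p = 0.948 in limma). These differences do not pass the correction for the number of probes tested.

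At 2 h the smallest p-values belonged to Slc2a1, Vegfa and Ankrd37. Slc2a1 was lower with progesterone in 3 of 4 pairs, with differences of 0.00, -0.35, -0.16 and -0.11 and a mean of -0.15 (-0.33 to 0.03, adjusted p = 1 in limma). Vegfa was lower in 3 of 4 pairs, by -0.15 on average (-0.33 to 0.03). Ankrd37 was higher in 3 of 4, by 0.20 (-0.04 to 0.45). Egln3, Ndrg1, Ldha and Adm, which all rose over time, had differences of -0.04, -0.10, -0.02 and -0.02.

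Whether progesterone acted differently at the 2 times, which is also whether the change over time differed between the arms, was tested as an interaction over 16 arrays. It was called for 0 of 34 members, beside 0.00805% of all genes, and 2 members had an unadjusted p under 0.05. These were Fbp2 at 0.34 (0.10 to 0.58, adjusted p = 0.999 in limma) and Ndrg1 at -0.27 (-0.51 to -0.03, adjusted p = 0.999 in limma). Pdk3 followed at 0.21 (-0.02 to 0.44). For the members called over time in only 1 arm the interaction was -0.07 for Pdk4, -0.22 for Pfkm, -0.02 for Eno2, -0.09 for Ddit4 and 0.07 for Ankrd37, each with a limma adjusted p of 0.999. A difference between the arms was therefore not shown for any member.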

How the data were processed

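RNA of the 16 pooled tube samples was measured on MouseRef-8 v2 bead arrays. For each of 25697 probes the authors deposited a signal intensity per array, as GenomeStudio gave it before background subtraction and normalization. Each value came with a deposited detection p-value, computed from the negative controls that exceed the probe (798 per array by its steps). Array columns were matched to samples by label, and 0 were left over. Arrays give no depth, so that their number limits the precision, and chip positions are not given in the sources used here.

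Intensities were quantile-normalized over all arrays in limma 3.58.1 (R 4.3.3, with the data.table package in version 1.17.8) and taken to log2. The filter asked for detection at a p-value below 0.5 on 13 or more arrays. Progesterone and control were compared with lmFit and eBayes within each time, with the pair as a block, and called at a Benjamini-Hochberg value of 0.20 or less, the level of the study's paired SAM, which was not run here. Times were compared within each arm at 0.05, and the interaction, over 8 blocks, at 0.20. P-values were adjusted over all 16848 probes, while shares count 1 probe for each of 12426 symbols. Intervals are 95% intervals.

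Alternatives were median centring, no scaling, normexp background correction (limma's nec, offset 16), detection below 0.05 on 4 or more arrays, no filter and array weights. Fits without the replicate block, or with the pair as a random replicate block over 16 arrays, were also run. Each sample or pair was left out in turn. The fits were tested on simulated data. Figures were drawn in Python 3.11.15 with matplotlib 3.10.9.

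Control and progesterone samples were paired by the code in their labels, as in the study's paired test. Deviations from the group means correlated at 0.45 on average for the same code at 20 min (0.35 to 0.55), against -0.15 for different codes. At 2 h these averages were 0.29 (5e-04 to 0.65) and -0.10. Because group means were subtracted, the average for different codes largely follows from that for the same code. It is not separate support for the pairing. The study describes 6 pooled tubes as 3 animals and also 1 tube of each mouse per arm, statements that contradict each other.

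The members and the lists were chosen with earlier results of these data known. Values on every array are given for 12 members set by role where kept, for up to 6 called members with the largest change per comparison, and, in comparisons without a call, for the 3 lowest p-values. Of the further pathway genes, up to 5 called in each direction are named. Slc2a3 and Eno2, outside that rule for array values, are given as ranges.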

Additional observations from a re-analysis of the deposited data

Results flagged for a closer look

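In 4 of 136 sets of 4 arrays (34 members in 4 groups) a single array stood apart from the other three by more than the 95% limit of Dixon's test, where chance alone would give about 6.8. The signal of Slc16a3 in the 20 min control of pair 22ob was 7.24 on the log2 scale, with the other controls of 20 min between 6.87 and 6.90. Adm in the 20 min progesterone sample of 12n was 7.37, below the others at 7.53 to 7.55. In pair 6d of 2 h, Tpi1 was low in the control (12.78, others 12.98 to 13.004) and Eno1 was low in the progesterone sample (11.19, others 11.48 to 11.53).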

How the results depend on the processing

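Ndrg1, Ndrl and Egln3 passed the test over time in both arms under every alternative run, and the controls' rise of Pdk4 and falls of Slc2a3 and Fbp2 did so too. The members called higher in the controls (8) were 5 with median centring and 4 without scaling, and 7 to 10 when an array was left out. Those called higher with progesterone (10) were 4 without scaling, and 8 to 10 when an array was left out. Members called lower with progesterone (2) were 4 with median centring, 6 without scaling and 1 with background correction, and 0 to 3 when an array was left out, with 0 without 30o of 2 h and 1 without 27n or 22ob of 20 min or 15o of 2 h. Ddit4 with progesterone turned to -0.044 without scaling. The cause of these changes was not tested, and the share of all genes under each alternative is not given beside these counts. Without scaling the median of all kept probes moved by -0.17 (controls, time), -0.23 (progesterone, time) and 0.13 (progesterone at 20 min). With no replicate block the members called between progesterone and control, and in the interaction, stayed at 0, as they did under every other alternative run. With the pair as a random replicate block over 16 arrays, 10 members were higher and 3 lower in the controls, and 10 and 2 with progesterone, where the adjusted p of Ddit4 was 0.0638. Counting Ndrg1 and Ndrl as 1 gene was chosen after seeing the data. Probes near background (Slc16a3, Pgk1, Pfkfb3, Fbp1 and Epas1, not detected on all arrays) limit what could be seen of those genes, and 4 arrays per group limit the rest.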
